A study of Arabidopsis thaliana with 16 samples.

Results

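The D-type cyclins of Arabidopsis thaliana, a family of 10 genes running from CYCD1;1 to CYCD7;1, were followed through RNA libraries of seedlings exposed to treatments that damage DNA. The 10 members were taken as a gene family, by their identifiers. A D-type cyclin binds the kinase CDKA;1 in G1, and the active pair phosphorylates the retinoblastoma-related protein RBR1, which frees E2F factors to switch on the genes of S phase. Sugar, hormones and positional cues reach the cell cycle largely through the transcription of these cyclins. KRP and SIAMESE-type proteins bind the kinase complexes and inhibit them.

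Every one of the 16 libraries came from Col-0 seedlings aged 15 days and raised in vitro. Of the zeocin experiment 5 libraries were from mock seedlings and 5 from seedlings given zeocin, a bleomycin-type drug that breaks DNA, at 200 microg/ml for 3 h. In the UV-C experiment 3 libraries were from mock seedlings and 3 from seedlings given 8 kJ/m2 of UV-C, light that forms pyrimidine dimers, and no source used here states the time from UV-C to harvest. The study looked for long non-coding RNAs that act in the repair of double-strand breaks, and the cyclins were measured along with all other transcripts.

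The zeocin mock libraries held between 31329853 and 41488445 counts and the zeocin libraries between 31185080 and 44536500. The corresponding ranges were 32161555 to 37507136 for UV-C mock and 27973871 to 30014943 for UV-C. Levels are given as CPM, edgeR's counts scaled to the size of a library, with TMM factors. Changes are log2 fold changes against the mock of the same experiment, from edgeR's quasi-likelihood test. A gene is said to rise or fall where the Benjamini-Hochberg adjusted p over all loci was below 0.05. The SE given with a change was worked out from the change and its test statistic. The 95% intervals assume a normal spread of that SE, so they are too narrow for this few libraries. The labels do not say whether replicates were separate cultures, so p-values measure the spread between these libraries, which may be technical. Whole seedlings were extracted, so fewer cells that express a cyclin cannot be told apart from less of its RNA per cell.

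Each experiment was counted on transcripts assembled from its own reads, with 20880 zeocin loci and 22818 UV-C loci. A locus held 9 of the 10 members in each table. In the UV-C table these 9 genes each had a locus of their own. In that of zeocin, 8 of them did, and CYCD3;1 (AT4G34160) was fused with its upstream neighbour. CYCD7;1 (AT5G02110), which acts in the last division of the stomatal lineage that makes the guard cells, had no locus in either table and has no value. All members with a locus of their own passed the filter on low counts. The stretch counted differed between the tables for some members, since CYCD4;1 was covered over 89.9% of its exonic length for zeocin and 54.1% for UV-C, and the same shares were 86% and 61.1% for CYCD6;1 and 95% and 71.6% for CYCD5;1. The longest exonic stretch that any pair of members share without a mismatch was 31 bases, between CYCD4;1 and CYCD4;2.

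The 250 bases before the annotated start are printed for 3 members whose values the results below turn on. These are CYCD1;1, with the largest fall after UV-C, and CYCD2;1 and CYCD5;1, which rose after UV-C. The sequences are from RefSeq's TAIR10 chromosomes, are written 5′ to 3′ on the gene's strand and are in lower case, with motif matches in capitals.
CYCD1;1, chr1:26439306-26439555, plus strand: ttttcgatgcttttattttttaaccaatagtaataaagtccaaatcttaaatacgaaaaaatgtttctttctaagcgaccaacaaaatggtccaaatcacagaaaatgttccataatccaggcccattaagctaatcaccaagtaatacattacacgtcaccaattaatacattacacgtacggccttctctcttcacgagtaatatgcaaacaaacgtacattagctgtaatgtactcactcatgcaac
CYCD2;1, chr2:9556168-9556417, minus strand: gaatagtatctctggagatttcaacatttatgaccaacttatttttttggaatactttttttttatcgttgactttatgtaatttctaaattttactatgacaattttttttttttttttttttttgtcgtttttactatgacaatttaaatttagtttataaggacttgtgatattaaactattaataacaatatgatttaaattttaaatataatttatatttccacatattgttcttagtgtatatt
CYCD5;1, chr4:17678918-17679167, plus strand: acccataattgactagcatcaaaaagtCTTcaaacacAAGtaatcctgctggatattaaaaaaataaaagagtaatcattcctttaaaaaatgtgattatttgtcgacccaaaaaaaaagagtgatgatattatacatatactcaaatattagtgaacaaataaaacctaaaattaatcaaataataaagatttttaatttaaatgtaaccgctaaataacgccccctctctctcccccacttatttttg

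Both strands were searched for 2 motifs. The core AACGG, bound by the MYB factors of G2 and mitosis, was found in 1 member, CYCD3;1, and in 20.6% of 27443 promoters of the same length. The palindrome CTTNNNNNNNAAG, bound by the damage-response factor SOG1, was found in CYCD5;1, at position -223, and in CYCD3;1, against 9.71% of promoters. The whole window of CYCD3;1, with both of its matches, lies in an annotated exon of AT4G34150. A match describes these letters only.

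After zeocin 3 of the 8 measured members fell, CYCD1;1, CYCD3;2 and CYCD3;3, and 5 did not pass the test. None rose by edgeR, none at an unadjusted p below 0.05 and none by DESeq2. Of all 19447 loci tested 27.0% passed, 15.0% up and 12.0% down, so the 3 falls among 8 members stand beside a share of 12.0% down. The median log2 fold change was -0.25 over the members and -0.02 over all loci. The balance of all calls depended on the scaling, since rises were 55.6% of them under TMM factors but 44.9% under upper quartile factors.

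After UV-C 4 of the 9 measured members fell, CYCD1;1, CYCD3;2, CYCD3;3 and CYCD4;1. CYCD2;1 and CYCD5;1 rose, and 3 members did not pass the test. Here 64.4% of 19587 loci passed, 33.6% up and 30.9% down, so a share of 6 in 9 members is near the background. The median was -0.30 over the members and 0.00 over all loci, and upper quartile factors shifted the median of all loci by -0.11. The fold changes of the members were modest beside those of many other loci, with that of CYCD1;1 ranking at 3786 of 19587 by size.

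**Figure D1:**
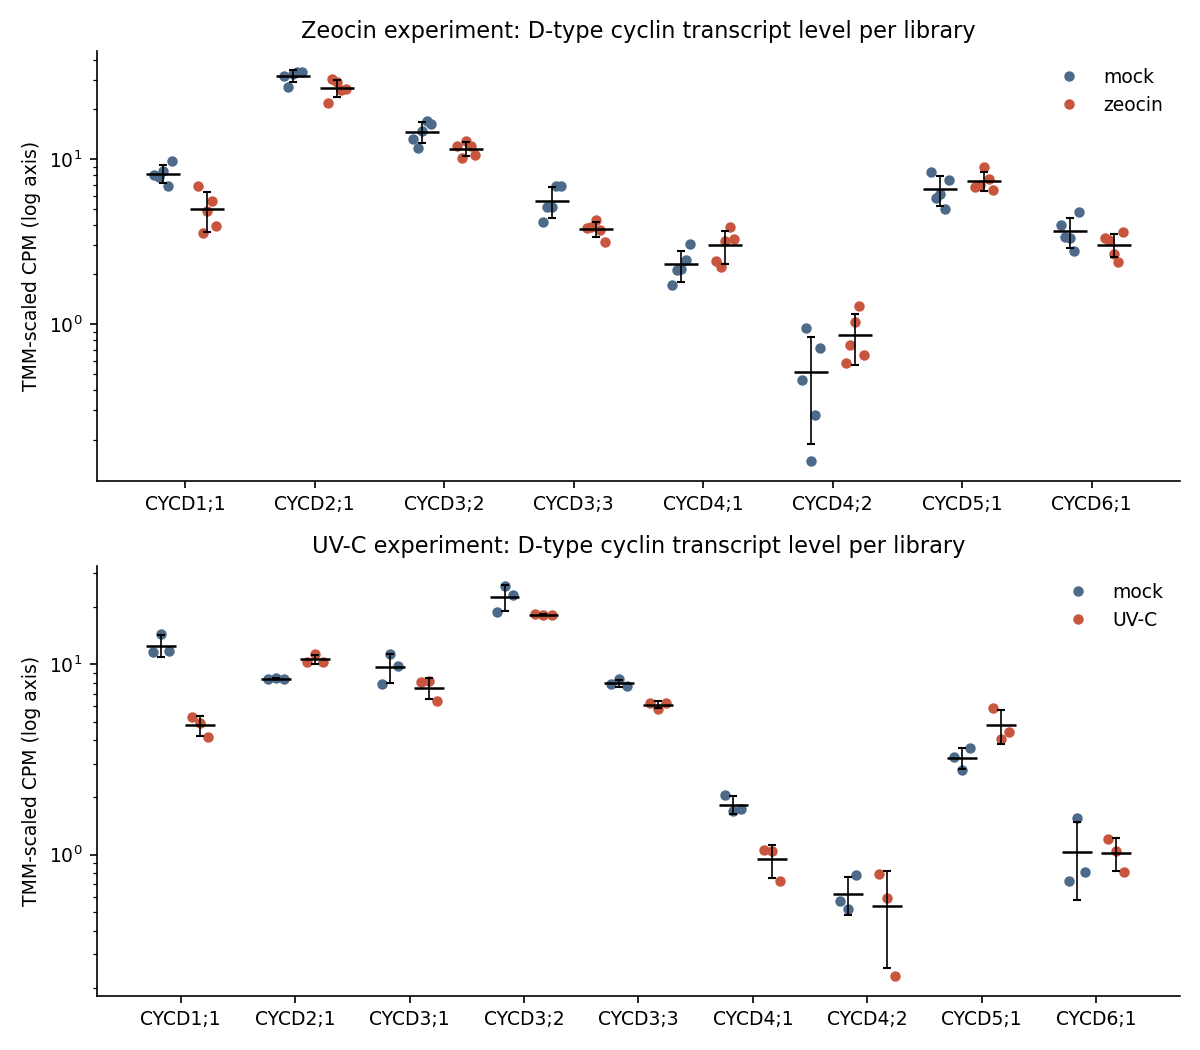
TMM-scaled CPM (log axis) of each D-type cyclin with a locus of its own, in the zeocin experiment (top, 5 mock and 5 treated libraries) and the UV-C experiment (bottom, 3 and 3). Points are libraries, bars the mean and whiskers 1 SD. The levels run from under 1 CPM for CYCD4;2 to over 20 CPM, and the UV-C libraries of CYCD1;1 all lie below their mock.

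CYCD1;1 (AT1G70210), known for starting division in the root tip as the seed germinates, fell in both experiments. In zeocin mock replicates 1 to 5 its level was 8.04, 7.74, 8.42, 6.91 and 9.76 CPM, and after zeocin it was 6.91, 3.57, 4.85, 5.59 and 3.92 CPM. The groups met only at 6.91 CPM, the lowest mock and the highest zeocin library. On the log2 scale the change was -0.72 ± 0.17 (adjusted p = 0.0056), a level 1.65-fold lower.

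In the UV-C experiment the mock libraries held 11.5, 14.4 and 11.7 CPM of CYCD1;1 and the UV-C libraries 5.26, 4.90 and 4.15 CPM. Every UV-C library was below every mock library. The mean fell from 12.5 ± 1.63 to 4.77 ± 0.568 CPM (SD, n = 3), a log2 fold change of -1.39 ± 0.13 (adjusted p = 6.54e-06) or 2.62-fold. This was the largest change of any member in either experiment. Its locus, on chromosome 1 from 26439811 to 26442478 in the zeocin table, covered 68.7% of the gene's exonic length there and 75.9% in the UV-C table.

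CYCD2;1 (AT2G22490) responds to sucrose, acts in roots and is held back by the inhibitor KRP2. Its level was 31.8, 27.3, 32.8, 33.5 and 33.8 CPM in zeocin mock replicates 1 to 5 and 21.96, 30.4, 29.3, 26.4 and 26.6 CPM after zeocin. Mock replicate 2 lay among the zeocin libraries and the other mock libraries lay above them. The log2 fold change of -0.24 ± 0.10 did not pass (adjusted p = 0.0797, 95% interval -0.43 to -0.05), although it did with upper quartile factors (-0.30, adjusted p = 0.0262) and without zeocin mock replicate 2 (adjusted p = 0.0429).

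After UV-C the same gene rose. The mock libraries held 8.40, 8.46 and 8.31 CPM and the UV-C libraries 10.3, 11.3 and 10.2 CPM. The mock values lay close together and all UV-C values were above them. This was a log2 fold change of 0.34 ± 0.09 (adjusted p = 0.00736), or 1.27-fold.

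The CYCD3 genes act together in leaves and other lateral organs, where they keep cells in division and delay endoreduplication, the repeated copying of DNA without division. CYCD3;1 is also induced by cytokinin. In the UV-C table it had its own locus, on chromosome 4 from 16357628 to 16359555, with 7.88, 11.3 and 9.76 CPM in mock and 8.02, 8.14 and 6.38 CPM after UV-C. Mock replicate 1 lay below the higher UV-C libraries. The log2 fold change was -0.36 ± 0.15 (adjusted p = 0.0577, 95% interval -0.65 to -0.07), which did not pass, while it did with upper quartile factors (-0.46, adjusted p = 0.0195) and without UV-C mock replicate 1 (adjusted p = 0.0115).

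In the zeocin table the exons of CYCD3;1 and of AT4G34150, whose annotated ends overlap by 40 bases on the same strand, were joined into a locus from 16354856 to 16359555. That locus held 66.4, 109, 119, 91.4 and 67.2 CPM in mock and 100.9, 164.5, 161, 120.3 and 156 CPM after zeocin. The groups overlapped, and the log2 fold change of the joint count was 0.63 ± 0.19 (adjusted p = 0.0299). This call was lost without zeocin mock replicate 1, 4 or 5 or zeocin replicate 2, 3 or 5 (adjusted p from 0.0565 to 0.0730). How much of the joint count came from the cyclin cannot be read from the table.

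The UV-C table shows how unequal the neighbours can be. There AT4G34150 had 992, 892 and 1647 counts in mock and 3268, 3610 and 3150 after UV-C, with a log2 fold change of 1.93 ± 0.23 (adjusted p = 0.000228). The cyclin had 303, 392 and 350 counts in mock and 212, 234 and 166 after UV-C. It therefore made up 17.5% to 30.5% of the counts of both genes in mock and 5.01% to 6.09% after UV-C, and a joint count there would have followed the neighbour. No zeocin value for CYCD3;1 alone is given for this reason.

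**Figure D2:**
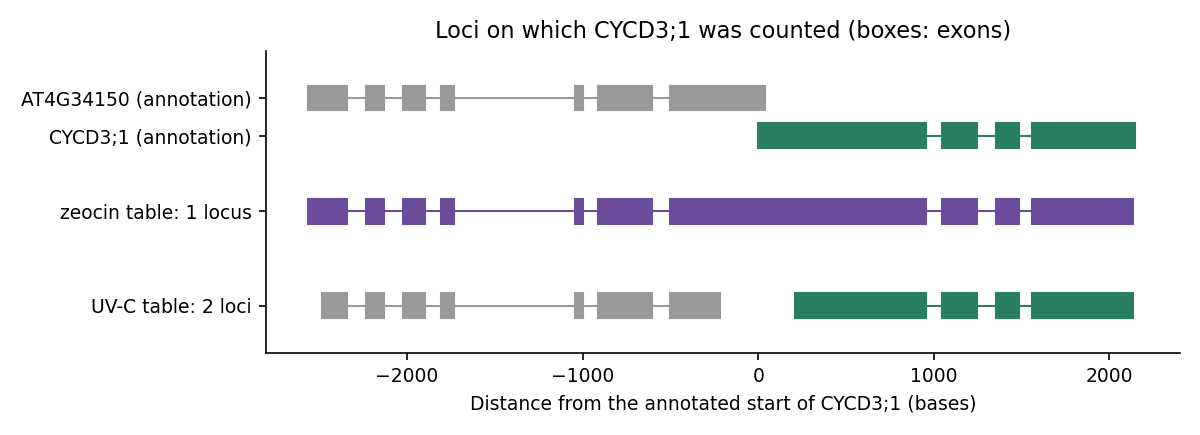
Exons (boxes) of CYCD3;1 and AT4G34150 in the annotation and of the loci that hold them in each table, by distance in bases from the annotated start of the cyclin. The zeocin table has 1 locus across both genes and the UV-C table has 2, so the cyclin has a count of its own only after UV-C and in its mock.

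CYCD3;2 (AT5G67260) fell in both experiments. Zeocin mock replicates 1 to 5 held 13.3, 11.7, 14.7, 16.9 and 16.3 CPM and the zeocin libraries 12.1, 10.1, 12.9, 12.0 and 10.6 CPM. Mock replicate 2 lay among the zeocin libraries and the other mock libraries lay above them all. The log2 fold change was -0.34 ± 0.11 (adjusted p = 0.0402), and the call was lost without zeocin mock replicate 3, 4 or 5 or zeocin replicate 2, 4 or 5 (adjusted p from 0.0624 to 0.109).

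In the UV-C experiment the gene had 18.7, 25.7 and 23.0 CPM in mock and 18.4, 18.2 and 18.1 CPM after UV-C. The treated libraries lay close together, just under mock replicate 1. Its log2 fold change was -0.30 ± 0.11 (adjusted p = 0.0348). It no longer passed by DESeq2 (adjusted p = 0.0553) or without UV-C mock replicate 2 or 3 or UV-C replicate 1, 2 or 3 (adjusted p from 0.0747 to 0.108).

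CYCD3;3 (AT3G50070), which acts with the other CYCD3 genes in leaves, fell in both experiments under every alternative tried. Zeocin mock replicates 1 to 5 held 4.13, 5.12, 5.10, 6.84 and 6.85 CPM, and the zeocin libraries held 3.82, 3.85, 4.31, 3.74 and 3.17 CPM. Only zeocin replicate 3 lay above the lowest mock library. It fell by 0.57 ± 0.16 on the log2 scale (adjusted p = 0.0154), or 1.49-fold lower. After UV-C the values were 6.28, 5.84 and 6.26 CPM against 7.88, 8.32 and 7.67 CPM in mock, with no overlap and a log2 fold change of -0.38 ± 0.10 (adjusted p = 0.00733).

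CYCD4;1 (AT5G65420) and CYCD4;2 (AT5G10440) promote divisions in the stomatal lineage of the hypocotyl, and CYCD4;1 also acts in the pericycle, where lateral roots begin. CYCD4;1 held 1.72, 2.12, 2.17, 2.45 and 3.05 CPM in zeocin mock replicates 1 to 5 and 2.43, 2.22, 3.21, 3.87 and 3.27 CPM after zeocin. The groups overlapped and the log2 fold change of 0.37 ± 0.20 did not pass (adjusted p = 0.192, 95% interval -0.02 to 0.77).

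After UV-C CYCD4;1 fell. It had 2.06, 1.70 and 1.73 CPM in mock and 1.06, 1.04 and 0.730 CPM after UV-C, and every treated library was below every mock library. It fell by 0.95 ± 0.23 on the log2 scale (adjusted p = 0.00428), or 1.93-fold lower. The stomatal lineage markers SPCH, MUTE, FAMA, EPF1, EPF2 and BASL fell with it in 6 of 6 cases (median log2 fold change -1.51), where 30.9% of all loci fell. TMM, the other marker listed, had no locus of its own. The summed level of the measured markers dropped from between 12.3 and 16.9 CPM in mock to between 4.69 and 6.62 CPM after UV-C. Their part in the fall of the cyclin was not tested.

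CYCD4;2, described as lacking the motif that binds RBR1, was the least abundant measured member. It had 16, 30, 6, 12 and 31 counts in zeocin mock replicates 1 to 5 and 20, 32, 42, 39 and 26 after zeocin, or 0.511 ± 0.324 and 0.859 ± 0.295 CPM (SD, n = 5). Its log2 fold change was 0.76 ± 0.44 (adjusted p = 0.224, 95% interval -0.10 to 1.62). In the UV-C experiment it had 22, 18 and 28 counts in mock and 21, 17 and 6 after UV-C, with a log2 fold change of -0.20 ± 0.41 (adjusted p = 0.677, 95% interval -1.002 to 0.59). These were the widest intervals of any member in each experiment.

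CYCD5;1 (AT4G37630), tied by natural variation to the extent of endoreduplication in leaves and induced by MUTE in the stomatal lineage, rose after UV-C. Its level was 3.25, 2.79 and 3.63 CPM in mock and 5.91, 4.07 and 4.42 CPM after UV-C. All treated libraries were above all mock libraries, and UV-C replicate 1 was the highest. The log2 fold change was 0.57 ± 0.18 (adjusted p = 0.0158), or 1.49-fold, and it no longer passed without UV-C mock replicate 2 (adjusted p = 0.0511) or UV-C replicate 1 (adjusted p = 0.0686). The rise stood beside a log2 fold change of -2.19 ± 0.42 for MUTE itself (adjusted p = 0.00106). MUTE was at a low level, with 0.80 ± 0.20 CPM in mock and 0.17 ± 0.086 CPM after UV-C (SD, n = 3), so the size of its fall is uncertain.

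In the zeocin experiment CYCD5;1 had 8.41, 5.78, 6.18, 4.997 and 7.52 CPM in mock and 6.76, 6.98, 8.96, 7.54 and 6.54 CPM after the drug. The groups overlapped broadly, with a log2 fold change of 0.16 ± 0.15 (adjusted p = 0.466, 95% interval -0.13 to 0.45).

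CYCD6;1 (AT4G03270) drives the division that sets endodermis apart from cortex in the root and is a target of SHR and SCR. It had 3.99, 3.38, 3.33, 2.78 and 4.75 CPM in zeocin mock replicates 1 to 5 and 3.32, 3.22, 2.67, 2.38 and 3.595 CPM after zeocin. The groups overlapped, with a log2 fold change of -0.26 ± 0.18 (adjusted p = 0.307, 95% interval -0.61 to 0.09). SHR and SCR fell in the same libraries by 0.58 ± 0.12 and 0.56 ± 0.09 on the log2 scale. In the UV-C experiment the cyclin had 0.728, 1.55 and 0.809 CPM in mock and 1.21, 1.04 and 0.807 CPM after UV-C, and its log2 fold change was -0.01 ± 0.34 (adjusted p = 0.989, 95% interval -0.66 to 0.65).

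**Figure D3:**
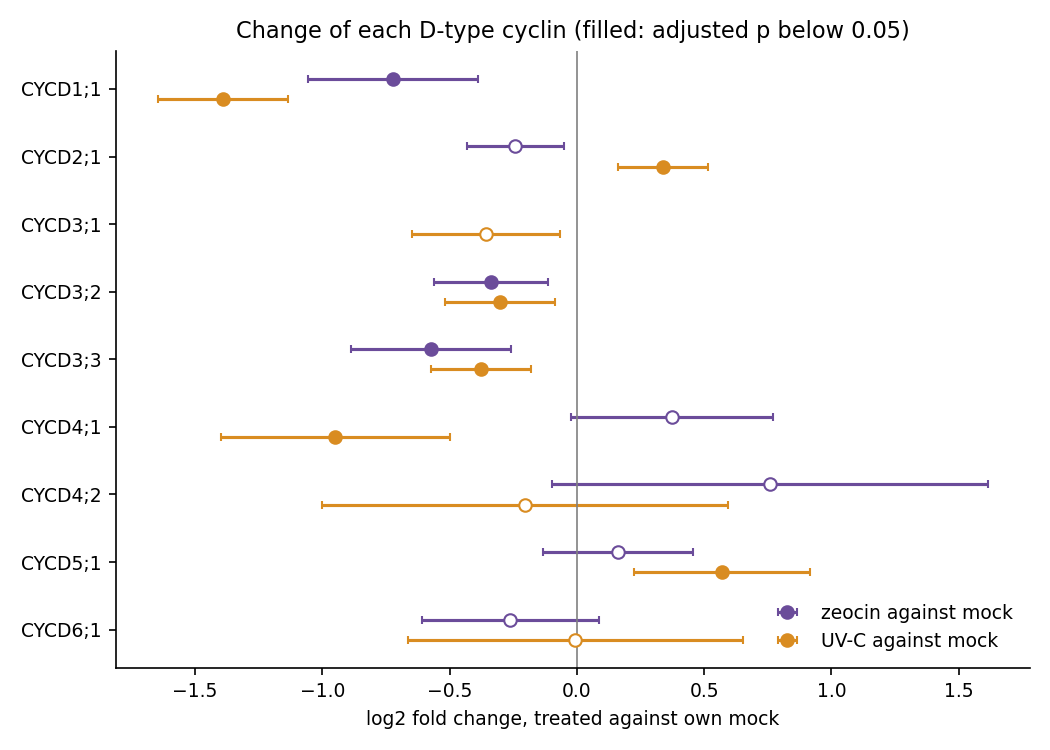
Log2 fold change of each D-type cyclin with a locus of its own against the mock of its experiment, with its 95% interval. Filled points passed an adjusted p below 0.05. CYCD1;1 lies lowest in both experiments, at -0.72 and -1.39, and CYCD2;1, CYCD4;1 and CYCD4;2 have opposite signs in the 2 experiments.

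Set per kilobase of counted exon and named by identifier, the members in mock seedlings of the zeocin table were led by AT2G22490, with 19.0 ± 1.60 CPM per kb (SD, n = 5). AT5G67260 followed with 10.4 ± 1.53 CPM per kb and lay clear of its neighbours. AT1G70210, AT3G50070, AT4G37630 and AT4G03270 came next with means of 4.75, 4.17, 3.37 and 2.64 CPM per kb, and the ranges of each neighbouring pair among them overlapped. AT5G65420 had 1.27 ± 0.270 and AT5G10440 0.452 ± 0.287 CPM per kb, both clear of the member above.

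In the mock libraries of the UV-C experiment AT5G67260 led with 16.2 ± 2.55 CPM per kb (SD, n = 3). AT1G70210 (6.59), AT4G34160 (5.82) and AT3G50070 (5.71 CPM per kb) followed with overlapping neighbours, and AT2G22490 was the fifth with 4.91 ± 0.043 CPM per kb. After UV-C AT1G70210 was the sixth at 2.51 ± 0.298 CPM per kb, and AT2G22490 came right after AT5G67260 with 6.21 ± 0.364 CPM per kb. The range of AT2G22490 overlapped that of neither neighbour in the order.

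As a share of the summed CPM per kb of the measured members, AT1G70210 went from 14.7% ± 0.868 in UV-C mock to 6.84% ± 0.445 after UV-C (SD, n = 3). Over the same libraries AT2G22490 went from 11.1% ± 1.09 to 17.02% ± 1.23 and AT4G37630 from 5.48% ± 1.06 to 9.83% ± 1.62, while AT5G67260 had 36.1% ± 2.29 and 36.0% ± 1.73. In the zeocin experiment AT2G22490 had 41.4% ± 1.77 of the sum in mock and 41.9% ± 4.24 after the drug (SD, n = 5). The sum itself was 46.1 ± 4.30 CPM per kb in zeocin mock and 38.4 ± 2.33 after zeocin, and 44.7 ± 4.48 in UV-C mock and 36.6 ± 2.06 after UV-C. AT4G34160 is part of the sum only in the UV-C experiment, so the sums of the experiments hold unlike sets of members. These shares are descriptions and were not tested.

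**Figure D4:**
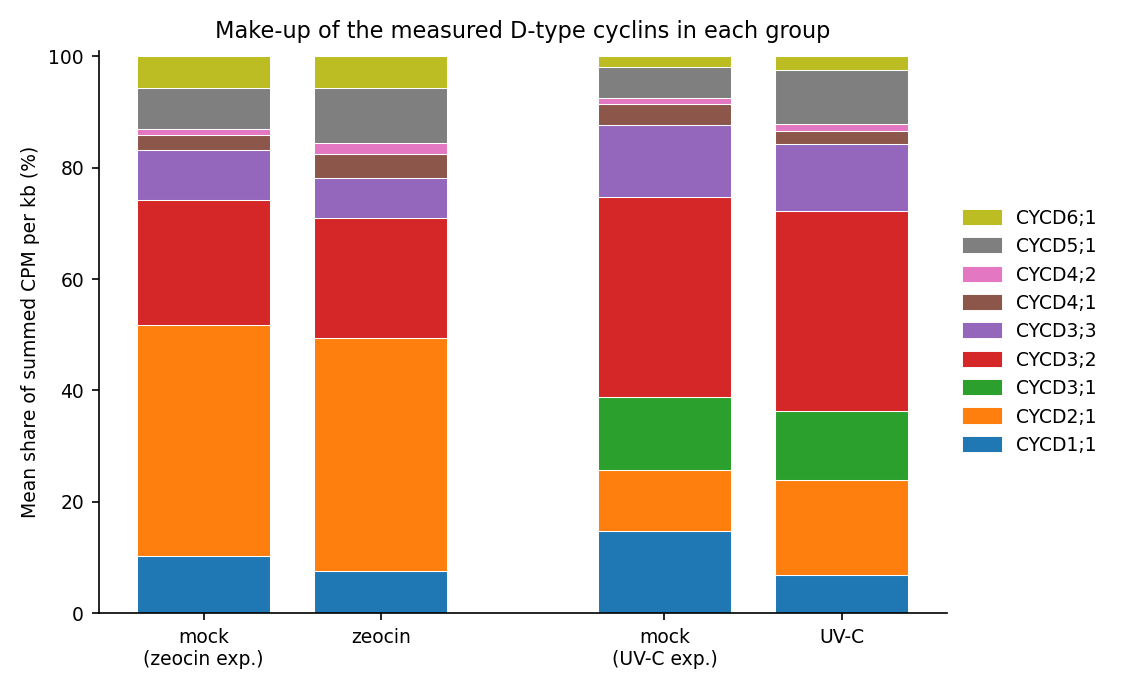
Mean share in percent of each D-type cyclin in the summed CPM per kb of the measured members, by group, as stacked bars from 0 to 100, where CYCD3;1 is part of the sum only in the UV-C table. The share of CYCD1;1 is 14.7% in UV-C mock and 6.84% after UV-C, and that of CYCD2;1 is 11.1% and 17.02%.

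The difference between the responses was tested in a joint fit of all 16 libraries, over genes held alone in both tables, where 47.2% of 17183 genes passed, 23.4% with a higher and 23.8% with a lower UV-C response. It passed for 3 of 8 members, a share below that background. CYCD4;1 differed most, with a UV-C minus zeocin difference of -1.36 ± 0.33 on the log2 scale (adjusted p = 0.00266). CYCD2;1 had a UV-C response higher by 0.55 ± 0.14 (adjusted p = 0.00436). For CYCD1;1 the UV-C fall was deeper, with a difference of -0.70 ± 0.26 (adjusted p = 0.0339), which no longer passed without zeocin mock replicate 4, zeocin replicate 1 or 4, UV-C mock replicate 2 or UV-C replicate 2 or 3 (adjusted p from 0.0544 to 0.102).

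The responses of the other members did not differ beyond the test's threshold. AT5G67260 had the narrowest interval among them, from -0.32 to 0.32 on the log2 scale around a difference of 0.00, and AT3G50070 had 0.16 (95% interval -0.26 to 0.58). The interval was -0.11 to 0.86 for AT4G37630, -0.51 to 0.95 for AT4G03270 and -2.37 to 0.37 for AT5G10440. AT5G65420 was counted over different parts of its transcript in the tables, and the experiments differ in agent, dose and mock, which cannot be told apart here.

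Among the kinases that D-type cyclins work with, CDKA;1 (AT3G48750), their main partner, had 43.3 ± 2.94 CPM in zeocin mock and 44.3 ± 2.77 CPM after zeocin (SD, n = 5), a log2 fold change of 0.03 ± 0.08 that was -0.02 with upper quartile factors. After UV-C it fell from 21.4 ± 0.572 to 14.4 ± 0.575 CPM (SD, n = 3), a log2 fold change of -0.57 ± 0.08 (adjusted p = 7.30e-05). Of 12 measured kinases, CDK-activating kinases and their partners 7 fell after UV-C (median -0.49), where 30.9% of all loci fell and 33.6% rose. None rose by edgeR, at an unadjusted p below 0.05 or by DESeq2. The largest falls were those of the mitotic kinases CDKB2;1 (-1.77 ± 0.19) and CDKB1;2 (-1.43 ± 0.24). In the zeocin table CDKB2;1 had no locus of its own and has no value. After zeocin, where 15.0% of all loci rose and 12.0% fell, 1 of 10 rose (median 0.02). This was the CDK-activating kinase CDKD;2, from 6.91 ± 0.402 to 23.0 ± 1.26 CPM. None fell in the main edgeR fit, although 2 did at an unadjusted p below 0.05, 2 by DESeq2 and 2 with upper quartile factors. Over all alternatives the count of falls ran from 0 to 2.

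The inhibitors held the largest changes of the pathway. After zeocin 6 of 15 measured KRP and SIAMESE-type genes rose and 3 fell (median 0.06), beside 15.0% and 12.0% of all loci. SMR7 rose from 0.360 ± 0.193 to 190 ± 30.0 CPM (log2 fold change 9.07 ± 0.24) and SMR4 by 4.98 ± 0.30, both SIAMESE-type genes. KRP2, the inhibitor named above with CYCD2;1, fell by 1.02 ± 0.29 on the log2 scale (adjusted p = 0.0177, and 0.0576 without zeocin mock replicate 4), and KRP5 had -0.69 ± 0.24 (adjusted p = 0.0415), lost without zeocin mock replicate 3 or 4 or zeocin replicate 1, 2, 4 or 5, up to an adjusted p of 0.125. The count of falls was 1 without zeocin mock replicate 4 or zeocin replicate 4.

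After UV-C 6 of 16 inhibitors rose and 2 fell (median 0.18), beside 33.6% and 30.9% of all loci, so the share that rose is near the background. SMR5 rose from 0.0731 ± 0.0138 to 28.3 ± 3.57 CPM (log2 fold change 8.51 ± 0.20) and SMR7 by 6.12 ± 0.22. In the zeocin table SMR5 had no locus of its own, so its zeocin response has no value. KRP4 fell by 0.41 ± 0.10 on the log2 scale, and KRP1 had -0.65 ± 0.25 (adjusted p = 0.0410), lost without UV-C mock replicate 1 or 2 or UV-C replicate 2, up to an adjusted p of 0.119. The count of falls was 1 without UV-C mock replicate 1 or UV-C replicate 2 and 3 without UV-C replicate 3.

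RBR1 (AT3G12280), the substrate of the D-type cyclin kinase, had 59.3 ± 6.81 CPM in zeocin mock and 68.5 ± 3.28 CPM after zeocin (SD, n = 5), and its log2 fold change of 0.21 ± 0.08 did not pass (adjusted p = 0.0836), although it did without zeocin mock replicate 4 (adjusted p = 0.0144). Of the 9 genes of RBR1, E2F and DP 3 rose after zeocin and 1 fell (median 0.13), beside 15.0% and 12.0% of all loci. E2FC rose by 0.71 ± 0.11 and E2FB by 0.65 ± 0.11, and DEL1, an atypical E2F that represses entry into the endocycle, fell by 1.02 ± 0.23 on the log2 scale. After UV-C 2 of 9 rose and 1 fell (median 0.07), shares below the 33.6% and 30.9% of all loci, and none rose and 1 fell with upper quartile factors (median -0.04). The UV-C calls were RBR1 at 0.30 ± 0.09, E2FC at 0.51 ± 0.18 and DEL2, another atypical E2F, at -0.65 ± 0.22. RBR1 was lost with upper quartile factors and without UV-C mock replicate 1 or 3 or UV-C replicate 2, up to an adjusted p of 0.0865. E2FC and DEL2 were lost with DESeq2 and without UV-C mock replicate 1 or UV-C replicate 2 or 3, up to 0.0952 and 0.102, and E2FC also with upper quartile factors.

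The S phase genes downstream of E2F fell after zeocin in 12 of 13 measured cases (median -0.75, all loci -0.02), where 12.0% of all loci fell. None rose by edgeR, at an unadjusted p below 0.05 or by DESeq2. CDC6A, which loads the replicative helicase, fell by 1.37 ± 0.21 on the log2 scale and MCM7, a helicase subunit, by 1.16 ± 0.14. RNR2A, a subunit of ribonucleotide reductase, was the member that did not pass, at -0.01 ± 0.11, and is named after its value was seen. After UV-C 2 of 13 fell and 1 rose (median -0.13), shares below the 30.9% and 33.6% of all loci, or 4 and 1 with upper quartile factors, and 2 rose without UV-C mock replicate 1 or 2 or UV-C replicate 3. CDC6A fell by 0.79 ± 0.15 and MCM7 by 0.44 ± 0.12 on the log2 scale, and RNR2A rose by 0.85 ± 0.08.

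**Figure D5:**
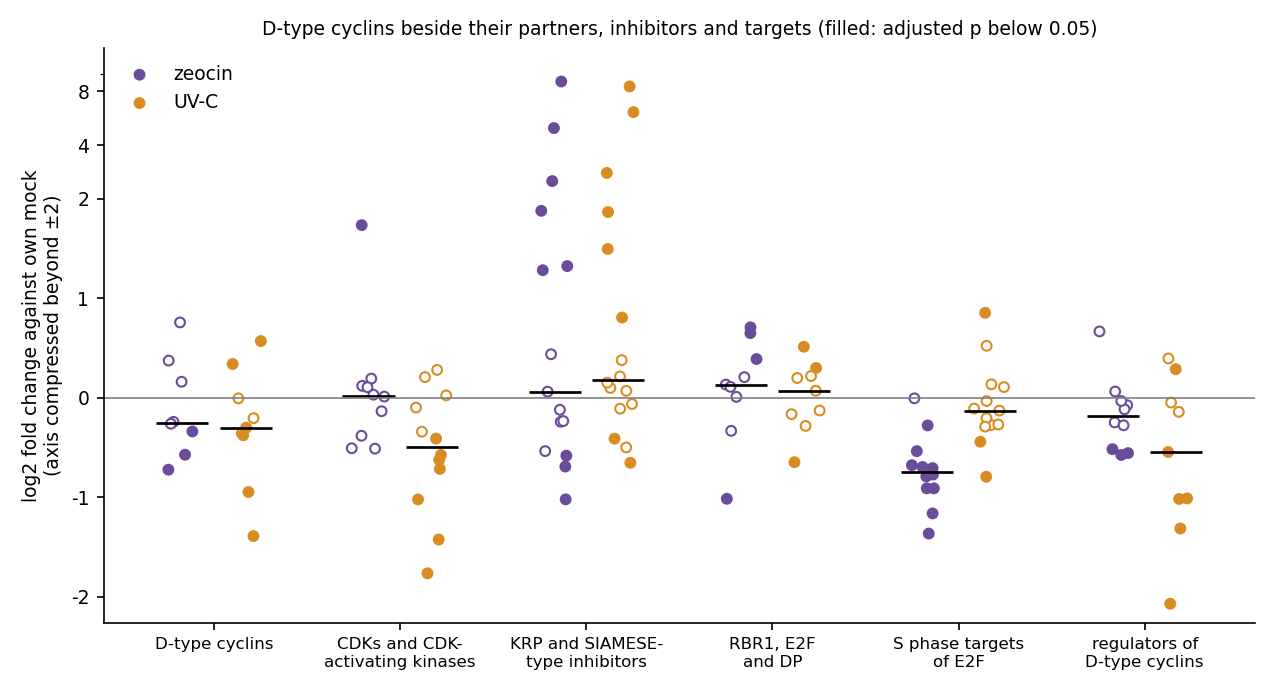
Log2 fold change against mock (axis compressed beyond 2 and -2) of each measured gene in the D-type cyclin family and in 5 lists of its partners, inhibitors, downstream factors, S phase targets and regulators. Filled points passed an adjusted p below 0.05 and lines are medians. The S phase targets lie below 0 after zeocin, with a median of -0.75, while the inhibitors hold the points above 8.

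Of 10 genes known to act on the transcription of D-type cyclins 3 fell after zeocin (median -0.18), beside 12.0% of all loci. None rose by edgeR, at an unadjusted p below 0.05 or by DESeq2, although 1 rose and 4 fell without zeocin replicate 1. These were SHR and SCR, given above with their root cyclin, and ANT, a factor that sustains CYCD3;1 in growing organs, at -0.52 ± 0.10, which is named after its value was seen. After UV-C 5 of 9 fell and 1 rose (median -0.55), beside 30.9% and 33.6% of all loci. MUTE fell by 2.19 ± 0.42 and FAMA, which ends the divisions of the stomatal lineage, by 1.31 ± 0.16 on the log2 scale. The cytokinin response regulator ARR10 had 0.29 ± 0.10 (adjusted p = 0.0306), lost with upper quartile factors, with DESeq2 and without UV-C mock replicate 2 or UV-C replicate 1, 2 or 3, up to an adjusted p of 0.149. SHR and SCR also stand among the root markers, and MUTE and FAMA among those of the stomatal lineage.

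Cell type markers moved in the same libraries. Of all loci 12.0% fell and 15.0% rose after zeocin, and 30.9% fell and 33.6% rose after UV-C. The summed level of 6 root markers was 218 to 282 CPM in zeocin mock and 92.8 to 113 CPM after zeocin, where 5 of 6 fell, and 36.9 to 58.2 CPM in UV-C mock and 24.6 to 39.8 CPM after UV-C, where 1 rose and 2 fell. The root marker PHT1;1 was the largest part of the sum in each group. Its means were 142 and 52.4 CPM in the zeocin experiment and 22.6 and 9.82 CPM in that of UV-C. That of 3 leaf mesophyll markers was 14330 to 19650 and 12770 to 17170 CPM in the zeocin experiment, where none passed, and 16970 to 18270 and 11850 to 12450 CPM in the UV-C experiment, where 3 of 3 fell. The stomatal lineage markers summed to 18.6 to 27.1 CPM in zeocin mock and 16.04 to 19.7 CPM after zeocin, with 1 of 6 falling. The shoot meristem was read from 2 markers, STM and KNAT1, while WUS and CLV3 had no locus of their own. The sums were 10.4 to 15.7 and 10.03 to 14.3 CPM in the zeocin experiment, where neither passed. In that of UV-C they were 1.82 to 2.76 and 2.23 to 3.48 CPM, and the markers went opposite ways. KNAT1 rose by 0.77 ± 0.27 on the log2 scale (adjusted p = 0.0304), and STM had -0.85 ± 0.37 (adjusted p = 0.0683). Markers of flower and pollen, absent from seedlings, summed to at most 0.715 CPM in any library. The part of these shifts in the changes of the cyclins was not tested.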

How the data were processed

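The deposited values are raw fragment counts over assembled loci in 1 table per experiment, with all 16 columns mapped to samples by title. The locus length beside them, another deposited column, was used only for CPM per kb. Ribosomal RNA was depleted and libraries keep the strand, per the labels' protocols. Trim Galore 0.11.8, STAR 2.7.1a, StringTie 2.1.5, Subread 2.0.1 and the build TAIR10 are named in the submitters' processing notes. The authors assembled each experiment separately and counted exons by strand with featureCounts, per the file headers, so levels were compared within a table. A locus stood for a gene when their same-strand exonic overlap was at least 50% of either, taking the longest overlap, and loci with several genes were named for none. Gaps between exons of the loci matched annotated introns in 97.6% (zeocin) and 99.2% (UV-C) of cases.

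Counts were tested in R 4.3.3 with edgeR 4.0.16 (TMM factors, default filter on low counts, robust quasi-likelihood, two-sided), each experiment alone and jointly for the difference of responses. The filter left 19447, 19587 and 17183 loci. The scripts were tested on simulated data. Alternatives were upper quartile factors, nuclear loci only, DESeq2 1.42.0, no filter, the replicate number as a block, summed loci and leaving out each library. Named genes were all members, the 2 called genes with the largest change in each direction of each list, CDKA;1 and RBR1. The members and lists were chosen with earlier results of these data known. Plastid loci took 30.6% to 35.8% of the counts per library in zeocin mock and 34.3% to 37.3% after zeocin. In the UV-C experiment the share moved with the treatment, from 44.2% to 46.8% in mock and 37.0% to 40.55% after UV-C, without overlap. No library pair of a group agreed within counting noise. Some libraries but not all correlated best with the library of their own replicate number, so pairing is not settled, and the main fits did not pair the samples.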

Additional observations from a re-analysis of the deposited data

Results flagged for a closer look

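For 3 of the 8 members held alone in both tables the UV-C response differed from the zeocin response in the joint fit of all libraries. Of all 17183 genes in that fit 47.2% passed, so the share of the members is below that background. The difference, UV-C minus zeocin on the log2 scale, was -1.36 ± 0.33 for CYCD4;1 (adjusted p = 0.00266), 0.55 ± 0.14 for CYCD2;1 (adjusted p = 0.00436) and -0.70 ± 0.26 for CYCD1;1 (adjusted p = 0.0339). The last of these was lost in 6 of 16 fits that leave out a library, up to an adjusted p of 0.102. CYCD2;1 was above its mock in 3 of 3 UV-C libraries and below the mock mean in 5 of 5 zeocin libraries. CYCD4;1 was below its mock in 3 of 3 UV-C libraries and above the mock mean in 4 of 5 zeocin libraries. Among 20 groups of 5 libraries checked for a library far from the rest none stood out, where chance gives about 1 in 20.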

How the results depend on the processing

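Leaving out each library in turn, the count of D-type cyclins that rose after UV-C was 1 to 2, with 1 without UV-C mock replicate 2 or UV-C replicate 1. No other count for the members or for all loci moved by over 1.5 times. Within that limit the count of members that fell still ran from 2 to 4 after zeocin and from 3 to 5 after UV-C over all alternatives. A sign turned for values that did not pass. CDKA;1 after zeocin was -0.0247 with upper quartile factors. CYCD6;1 after UV-C was 0.0271 with the replicate block and -0.21 to 0.40 leaving out a library, CYCD4;2 after UV-C was -0.57 to 0.15, and the difference of responses of CYCD3;2 was -6e-04 with summed loci and -0.12 to 0.12 leaving out a library. The cause was not tested.

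With the replicate number as a block 3159 loci rose and 2571 fell after zeocin, and 6502 rose and 5863 fell after UV-C. The members kept 0 rises and 3 falls after zeocin, 2 and 4 after UV-C and 3 differences of response. Same-numbered libraries deviated together with r from -0.15 to 0.52 in the zeocin experiment and -0.33 to 0.19 in that of UV-C, and not every library correlated best with its own number. The block ended the call of KRP1 (adjusted p = 0.0520) among the genes named, leaving 1 fall among the inhibitors after UV-C, and gave 1 rise and 4 falls among the regulators after zeocin. Low counts limit CYCD4;2 and MUTE, and 3 libraries a group limit the UV-C values. DESeq2 was not run for the difference of responses.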

Other observations

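The order of the D-type cyclins differed between the mock groups of the experiments, which were counted on separate assemblies and scaled separately, so the values stand side by side without a test. CYCD2;1 made up 41.4% ± 1.77 of the summed CPM per kb of the measured members in zeocin mock (SD, n = 5) and 11.1% ± 1.09 in UV-C mock (SD, n = 3), while CYCD3;2 made up 22.5% ± 1.88 and 36.1% ± 2.29. CYCD6;1, the cyclin of the root ground tissue, made up 5.72% ± 0.969 and 1.957% ± 0.672. CYCD3;1 is part of the sum only in the UV-C experiment, so these are shares of unlike sets of members. Its presence there lowers the UV-C share of every other member. The summed root markers, of which PHT1;1 was the largest part, were 218 to 282 CPM in zeocin mock and 36.9 to 58.2 CPM in UV-C mock, and their part in the order was not tested.

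Among the SIAMESE-type genes that rose in both experiments SMR7 went from 0.360 ± 0.193 to 190 ± 30.0 CPM after zeocin and from 0.109 ± 0.022 to 7.90 ± 0.737 CPM after UV-C. SMR6 went from 1.31 ± 0.0865 to 3.18 ± 0.670 CPM after zeocin and from 1.22 ± 0.246 to 8.54 ± 0.177 CPM after UV-C. SMR5 has no zeocin value. Levels are not compared between the experiments, which were counted on separate assemblies. SMR6 was named after its values were seen. KRP6 rose in both, from 6.73 ± 1.92 to 38.6 ± 4.23 CPM and from 1.964 ± 0.0455 to 5.55 ± 0.201 CPM, and was also named after its values were seen.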
